A study of Mus musculus with 4 samples.

Results

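Genes of surface proteins of the immunoglobulin superfamily were followed in thymocytes after deletion of Ikaros, the zinc-finger transcription factor encoded by Ikzf1. The genes are Mpzl2, Alcam, Cd200, Mpzl1, F11r, Esam, Jam2 and Icam2, and they are 8 of the 19938 genes measured by a probe set with exactly 1 gene symbol. They were chosen by their membership of one protein family and by the higher values of Mpzl2, Alcam and Cd200 in the deleted cells. The comparison of Cre+ with Cre- cells therefore served to choose them, and their values in it are given as a description without a test. Each of the 8 genes had a single probe set on the array.

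The cells were DN4 thymocytes, the last thymic stage before CD4 and CD8 appear, and came from 4 mice whose Ikaros alleles were floxed (Ikf/f). Mice 129 and 135 (Cre+) also carried Rosa26-CreERT2, a recombinase that tamoxifen activates and that the Rosa26 locus drives in most cell types, so that other cells could delete the alleles too. Mice 131 and 137 (Cre-) were Ikf/f without it. The treatment note attached to all 4 samples names the Cre-carrying genotype, so groups were taken from the sample titles, with which the series' design text agrees in number. All 4 mice, controls included, received tamoxifen at 50 mg/kg on each of 4 days and were studied 24 h later, at an age that is not stated. Each mouse gave 1 Affymetrix mouse gene array, and array medians lay between 6.85 and 6.88 on the log2 scale. Ikzf1 itself was at 12.06 and 11.99 in Cre+ mice against 12.07 and 12.11 in Cre- mice. Where its probes lie relative to the floxed part was not analysed here, so the array does not check the labels. Loss of the protein in Cre+ cells was seen by western blot, per the series' design text. With only 2 arrays a group, every value below has limited precision.

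Adhesion molecules of this superfamily have extracellular domains with the fold of an antibody domain, and they bind copies of themselves, relatives or integrins on a facing cell. In the thymus such contacts hold thymocytes to epithelial, dendritic and endothelial cells. MPZL2 is a self-binding adhesion molecule known from thymic epithelium and thymocytes. ALCAM binds itself and the T cell receptor CD6, and CD200 is the inhibitory ligand of the CD200 receptor of myeloid cells. MPZL1 is a phosphatase-recruiting receptor, F11R and JAM2 are junctional adhesion molecules, ESAM is typical of endothelium and platelets, and ICAM2 is a ligand of the integrin LFA-1.

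Promoter windows of Alcam and Cd200 are shown because these genes were higher in Cre+ cells, and those of Mpzl1 and F11r because they are family members whose differences were small. The windows are the 250 bases before the annotated start, from RefSeq on GRCm38.p6. The table of windows used here matched 4 of the 8 genes. They were searched for the core letters of the Ikaros recognition motif, GGGAA, on both strands, where the other strand reads TTCCC. Capitals mark these letters. Alcam (chr16:52453082-52453331, minus strand), Cd200 (chr16:45409054-45409303, minus strand), Mpzl1 (chr1:165634542-165634791, minus strand) and F11r (chr1:171437311-171437560, plus strand) read as follows.
Alcam: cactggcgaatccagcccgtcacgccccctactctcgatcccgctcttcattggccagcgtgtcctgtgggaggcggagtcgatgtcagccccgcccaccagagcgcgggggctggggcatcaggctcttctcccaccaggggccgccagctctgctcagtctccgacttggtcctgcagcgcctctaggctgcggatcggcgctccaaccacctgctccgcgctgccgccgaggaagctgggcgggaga
Cd200: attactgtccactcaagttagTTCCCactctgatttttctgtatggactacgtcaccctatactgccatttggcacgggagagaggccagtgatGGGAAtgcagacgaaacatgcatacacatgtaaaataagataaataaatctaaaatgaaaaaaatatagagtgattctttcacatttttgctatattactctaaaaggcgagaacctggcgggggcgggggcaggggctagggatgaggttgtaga
Mpzl1: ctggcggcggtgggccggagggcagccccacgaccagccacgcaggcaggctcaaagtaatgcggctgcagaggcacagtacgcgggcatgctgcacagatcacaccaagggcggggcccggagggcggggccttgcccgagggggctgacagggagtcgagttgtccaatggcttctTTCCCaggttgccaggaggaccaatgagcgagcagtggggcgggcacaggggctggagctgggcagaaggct
F11r: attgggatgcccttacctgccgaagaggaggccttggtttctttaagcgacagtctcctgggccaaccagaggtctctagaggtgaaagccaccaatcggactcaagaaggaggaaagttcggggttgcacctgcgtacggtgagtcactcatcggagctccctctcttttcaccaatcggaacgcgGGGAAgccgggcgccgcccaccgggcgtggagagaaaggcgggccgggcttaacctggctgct

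The Cd200 window held 2 matches, the first bases of which lay 156 and 229 bases before the start. Mpzl1 held 1 match at 72 bases and F11r 1 match at 63 bases before the start, and the Alcam window held 0. Of all 32851 RefSeq windows of this length, 56.2% held the core on at least 1 strand and 21.2% held at least 2 matches. A match of these letters is common among promoters, and it is neither a measured binding site nor a cause. The windows also differed in base composition. G and C made up 69.2% of the Alcam window, 68.4% of that of Mpzl1 and 60% of that of F11r, but 42.4% of the Cd200 window, against a median of 52.4% over all windows. The Alcam window held 22 CG pairs and the Cd200 window 6, and the median was 6.

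Mpzl2 had the largest difference of the 8 genes. It was at 11.37 and 11.23 on the log2 scale in Cre+ mice 129 and 135, and at 9.69 and 9.34 in Cre- mice 131 and 137. Both Cre+ mice lay well above both Cre- mice, and the smallest gap between a Cre+ and a Cre- mouse was 1.55. The means differed by 1.79 (SE 0.13, n = 2 per group), or 3.45-fold, which was the 8th highest difference among 19938 genes. The 2 Cre- mice were 0.35 apart, a wider gap than the 0.13 between the Cre+ mice and than the median gap of 0.09 between the Cre- mice over all genes.

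Cd200, the ligand that restrains myeloid cells, came next. Its values were 7.41 and 7.49 in Cre+ mice against 6.08 and 6.24 in Cre- mice. The groups were separated by at least 1.17. The Cre+ mice were 0.08 apart and the Cre- mice 0.16, against median gaps over all genes of 0.07 and 0.09. The difference was 1.29 (SE 0.11, n = 2 per group), or 2.45-fold, and ranked 34th among all genes.

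Alcam, whose product binds CD6 on T cells, was at 7.74 and 7.82 in Cre+ mice against 7.06 and 6.97 in Cre- mice. The groups did not overlap, with a smallest gap of 0.69, and within-group gaps were 0.08 and 0.09. The difference was 0.77 (SE 0.10, n = 2 per group), or 1.71-fold, and ranked 106th. The 3 genes thus differed among themselves in size, the log2 difference of Mpzl2 being the largest and that of Alcam the smallest. All 3 were higher in the female pair, mouse 129 against 131, and in the male pair, mouse 135 against 137, with sex read from the level of Xist. With both Cre+ mice above both Cre- mice, any pairing gives this direction, so the pairs add no support. The differences in the female and the male pair were 1.68 and 1.89 for Mpzl2, 1.33 and 1.25 for Cd200, and 0.69 and 0.86 for Alcam.

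**Figure D1:**
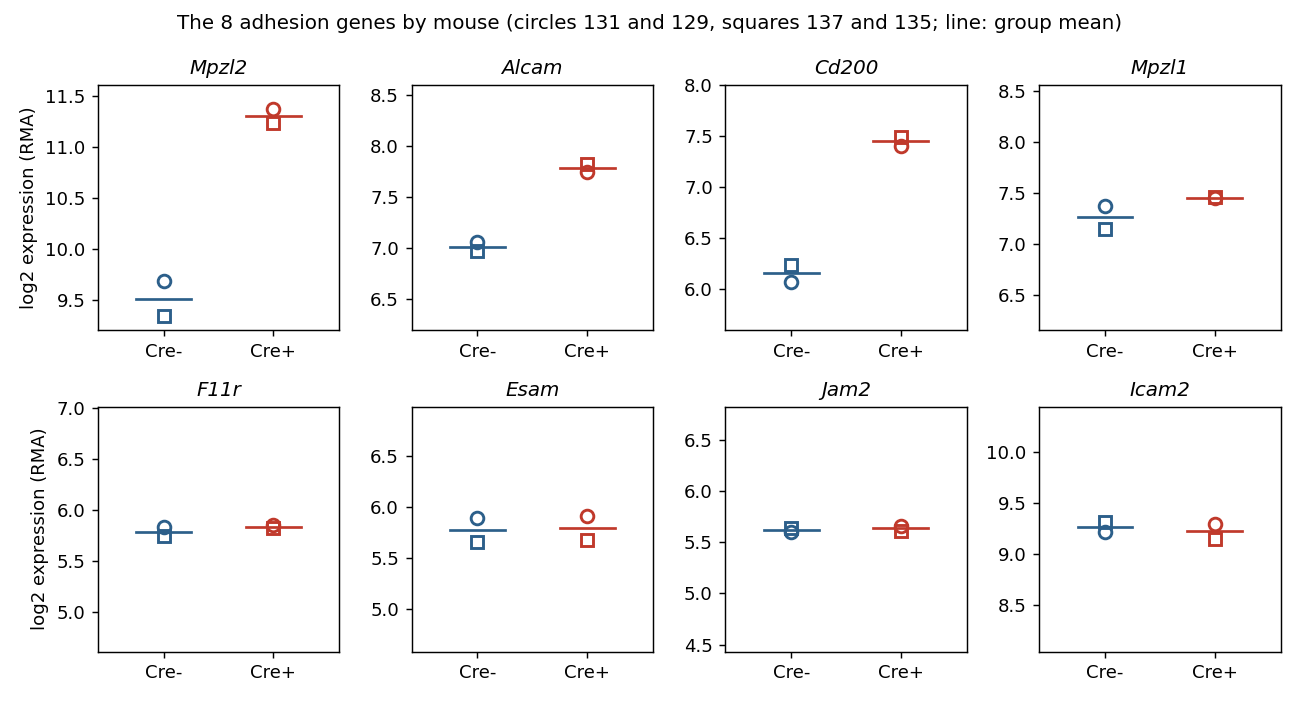
Log2 expression values of the 8 adhesion genes, 1 panel per gene with axes of the same height; points are single mice (blue Cre-, red Cre+) and lines are group means. Mpzl2, Alcam and Cd200 show separated groups, with differences of 1.79, 0.77 and 1.29, while the other 5 panels show group means less than 0.2 apart.

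The other 5 genes differed little between the groups. Mpzl1, the closest relative of Mpzl2 among the 8 genes and a receptor that recruits the phosphatase SHP-2, was at 7.45 and 7.45 in Cre+ mice against 7.37 and 7.15 in Cre- mice. Its groups did not overlap, but the nearest mice were 0.08 apart, less than the 0.23 between the Cre- mice. The difference was 0.19 (SE 0.12), or 1.14-fold. F11r, which encodes junctional adhesion molecule A, was at 5.85 and 5.82 in Cre+ mice against 5.84 and 5.74 in Cre- mice, and the groups overlapped (difference 0.05, SE 0.09). Jam2, which encodes junctional adhesion molecule B, was at 5.67 and 5.61 in Cre+ mice against 5.60 and 5.64 in Cre- mice, again with overlap (0.02, SE 0.08).

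The endothelial gene Esam was at 5.91 and 5.68 in Cre+ mice against 5.89 and 5.65 in Cre- mice. The groups overlapped (difference 0.02, SE 0.13). Mice 129 and 131 lay above mice 135 and 137, a split that is the same by sex (read from Xist) and by order of mouse number. Neither was tested, and the share of all genes with this split was not counted. Icam2, a leukocyte and endothelial integrin ligand, was at 9.30 and 9.15 in Cre+ mice against 9.22 and 9.31 in Cre- mice, and its difference of -0.04 (SE 0.09) was the only negative one of the 8. All 8 probe sets had means above the 25th percentile of all probe sets, and 4 of them (Mpzl2, Alcam, Mpzl1 and Icam2) were above the median. Background signal was not analysed here, and whether F11r, Esam and Jam2 were expressed cannot be read from these values.

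Counts over the 8 genes are set beside the same counts over all features, and nothing is read from them, since the comparison served to choose the genes. With limma and Benjamini-Hochberg adjustment over all 35556 probe sets, 0 probe sets (0%) had an adjusted p under 0.05, none of the 8 genes among them, while 2356 had an unadjusted p under 0.05. A second test took only the 21789 probe sets with 1 gene symbol, and there 204 (0.936%) were called higher and 62 (0.285%) lower in Cre+ cells. Mpzl2, Alcam and Cd200 were among those higher. The total called changed with the settings of that limited test, from 130 without an intensity trend to 565 with sex as a covariate. Calls of these 3 genes are no support, since their higher values here served to choose them. Both Cre+ mice lay above both Cre- mice for 4 of the 8 genes, as they did for 16.1% of all genes. A difference of at least 1 was seen for 2 of the 8 and for 0.291% of all genes.

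Other adhesion genes of the superfamily were compared as a list of 57 genes, of which 55 were measured. Of these, 25 had higher and 30 lower means in Cre+ cells, with a median difference of -0.01, beside a median of -0.01 over all genes, both rounded. Of all 19938 genes, 9148 had higher and 10783 lower means. By limma 0 of the 55 passed over all probe sets and 0 among probe sets with 1 gene symbol. An unadjusted p under 0.05 was found for 5, 2 higher and 3 lower, beside 821 higher and 546 lower of the 19938 genes. Both Cre+ mice were above both Cre- mice for 11 of the 55, and both were below for 14, against 16.1% and 20.3% of all genes. The differences ranged from -0.52 to 0.62, a range in which Mpzl2, Cd200 and Alcam did not fall.

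The highest difference on that list belonged to Ptgfrn, which encodes a partner protein of tetraspanins. It was at 6.95 and 6.63 in Cre+ mice against 6.19 and 6.15 in Cre- mice. The groups did not overlap and the difference was 0.62 (SE 0.14), with adjusted p = 0.431 over all probe sets and 0.0596 among probe sets with 1 gene symbol (limma). In that limited test Ptgfrn passed with sex as a covariate (limma, adjusted p = 0.00584) and after cyclic loess (0.0395). Without mouse 131 its difference was 0.64. Cd2, the adhesion receptor that T cells use to bind CD48, differed in the other direction. Its values were 8.33 and 8.03 in Cre+ mice against 8.59 and 8.81 in Cre- mice. The difference was -0.52 (SE 0.14; limma, adjusted p = 0.544 in the full test and 0.128 in the limited test). Without mouse 131 it was -0.63.

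Subfamilies closest to the 8 genes showed small differences. Mcam, a close relative of Alcam, was at 7.94 and 7.90 in Cre+ mice against 7.75 and 7.59 in Cre- mice, a difference of 0.25 (SE 0.10) that did not pass. The other ALCAM relative on the list differed by 0.12. The 9 measured genes of the CTX and JAM family, to which F11r, Jam2 and Esam are related, ranged from -0.12 to 0.15. The 6 of the ICAM, VCAM and PECAM group, relatives of Icam2, ranged from -0.09 to 0.14. Of the 10 CD2 and SLAM genes, 8 had lower means, beside 10783 of all 19938 genes, and 0 were called. Among the nectins and nectin-like genes the lowest difference was that of Cd226, a receptor for nectin ligands, with -0.25 (SE 0.10), which did not pass.

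**Figure D2:**
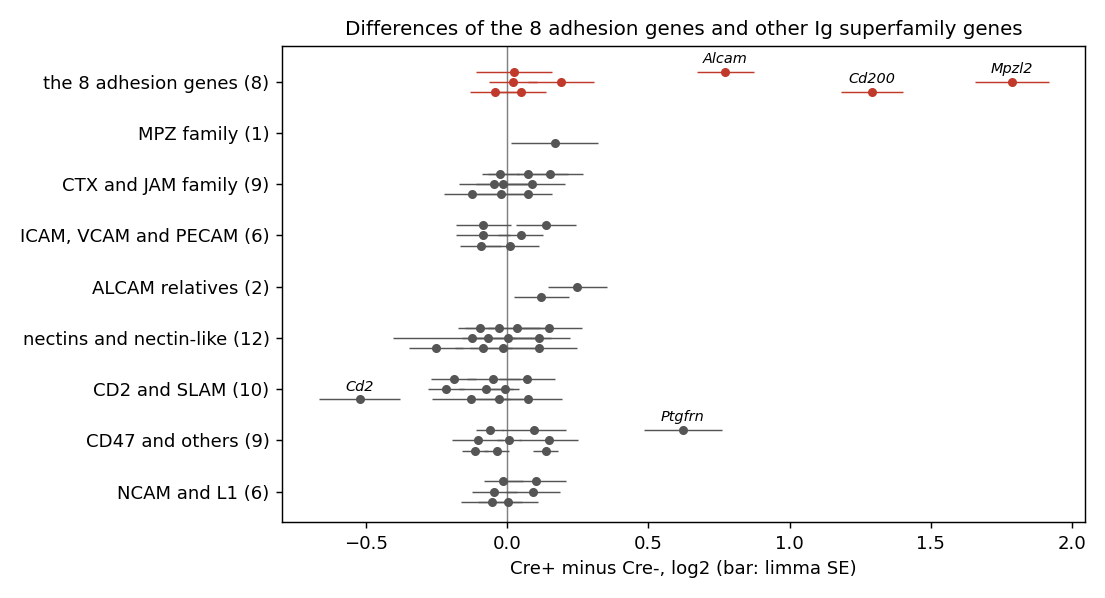
Log2 differences, Cre+ minus Cre-, of the 8 adhesion genes (red) and of 55 other immunoglobulin superfamily adhesion genes by subfamily (grey); points are genes, bars are limma's SE, and the number of genes stands in brackets. Mpzl2, Cd200 and Alcam lie at 1.79, 1.29 and 0.77, and every grey point lies between -0.52 and 0.62.

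Binding partners and intracellular partners of the 8 proteins formed a list of 23 genes, of which 22 were measured. Their median difference was 0.02, with 12 higher and 10 lower means. By limma 0 passed over all probe sets, while 4 had an unadjusted p under 0.05, beside 821 higher and 546 lower of all 19938 genes. Among probe sets with 1 gene symbol 1 was called higher and 1 lower, both of them integrin chains. Of all such probe sets, 0.936% were called higher and 0.285% lower. Itga4 and Itgb1 encode the alpha 4 and beta 1 chains, which together form an integrin that binds VCAM1 and JAM2. Itga4 was at 10.86 and 10.96 in Cre+ mice against 11.44 and 11.38 in Cre- mice.

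The Itga4 groups did not overlap, and the difference was -0.50 (SE 0.05; limma, adjusted p = 0.00466 in the limited test and 0.139 over all probe sets). Itgb1 went the other way, at 10.97 and 10.90 in Cre+ mice against 10.55 and 10.50 in Cre- mice. Its difference was 0.42 (SE 0.06; limma, adjusted p = 0.0158 in the limited test and 0.203 over all probe sets). Without mouse 129 Itgb1 was no longer called (adjusted p = 0.0713), and both calls were lost without an intensity trend in the fit (adjusted p = 0.0609 for Itga4 and 0.0899 for Itgb1).

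Itgb2, the beta chain of LFA-1, to which F11R and ICAM2 bind, was at 9.28 and 9.15 in Cre+ mice against 9.56 and 9.91 in Cre- mice. The difference of -0.52 (SE 0.14) did not pass (limma, adjusted p = 0.526 over all probe sets and 0.103 in the limited test). Itgb2 passed the limited test with sex as a covariate (limma, adjusted p = 0.0333). Without mouse 131 its difference was -0.70. Cd6, the receptor of ALCAM, was at 9.90 and 9.62 in Cre+ mice against 9.35 and 9.61 in Cre- mice. The value of Cre+ mouse 135 lay next to that of Cre- mouse 137, and the difference of 0.28 (SE 0.14) did not pass. The receptor of CD200 was also examined, chosen after its values were seen. Cd200r1 was between 4.40 and 4.56 in all 4 mice with a difference of -0.08 (SE 0.07), and the probe sets of all 4 CD200 receptor genes had means below the 25th percentile of the array. For Ptpn11, the gene of SHP-2, named on the same footing, the difference was 0.16 (SE 0.07) and did not pass.

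The genes beside each of the 8 on its chromosome were compared next, taking the 3 nearest measured genes on either side in RefSeq order. These were 48 genes with a median difference of 0.02, and 27 had higher means, beside 9148 of all 19938 genes. By limma 0 passed over all probe sets. Among probe sets with 1 gene symbol 3 were called, each higher, beside 0.936% of all such probe sets. All 3 lay on one side of Mpzl2 on chromosome 9, where the adjacent coding genes in RefSeq are Cd3e and Mpzl3. Cd3d, which encodes a CD3 chain of the T cell receptor complex, was at 11.93 and 11.72 in Cre+ mice against 11.20 and 11.12 in Cre- mice, a difference of 0.66 (SE 0.08; limma, adjusted p = 0.00432 in the limited test). Cd3g differed by 0.37 (SE 0.05, adjusted p = 0.00979) and Cd3e by 0.25 (SE 0.04, adjusted p = 0.0180) in the same limma test. All 3 calls were lost without an intensity trend in the fit, with adjusted p between 0.0588 and 0.298.

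On the other side of Mpzl2, its relative Mpzl3 was at 7.26 and 7.15 in Cre+ mice against 6.86 and 7.22 in Cre- mice. These groups overlapped, and the difference of 0.17 (SE 0.15) did not pass. The next genes, Jaml, which encodes a leukocyte adhesion molecule of the JAM family, and the predicted gene Gm10684, differed by 0.07 (SE 0.08) and 0.08 (SE 0.08). All 6 neighbours of Mpzl2 had higher means, as did all 6 of Esam, beside 9148 of all 19938 genes. The difference of Mpzl2 exceeded the largest among its neighbours, that of Cd3d, by more than 1 on the log2 scale.

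Around Alcam and Cd200, both on chromosome 16 but not next to each other, no neighbour passed. The genes Dubr, 1700116B05Rik and Cblb on one side of Alcam differed by -0.01, -0.15 and -0.06, and Zpld1, Nfkbiz and Nxpe3 on the other by 0.03, 0.11 and -0.07. Cblb encodes a ubiquitin ligase that restrains T cell activation, and Nfkbiz an inhibitor-like regulator of NF-kappaB. The genes Slc35a5, Atg3 and Btla on one side of Cd200 differed by -0.04, -0.00 and 0.06, and Gm609, Slc9c1 and Gcsam on the other by 0.03, -0.02 and -0.06. Btla is itself an inhibitory receptor gene of the immunoglobulin superfamily. Of the neighbours of the other 5 genes, Mir155, beside Jam2, had the largest difference, with -0.33 (SE 0.17), and did not pass. Without mouse 131 it differed by -0.54.

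**Figure D3:**
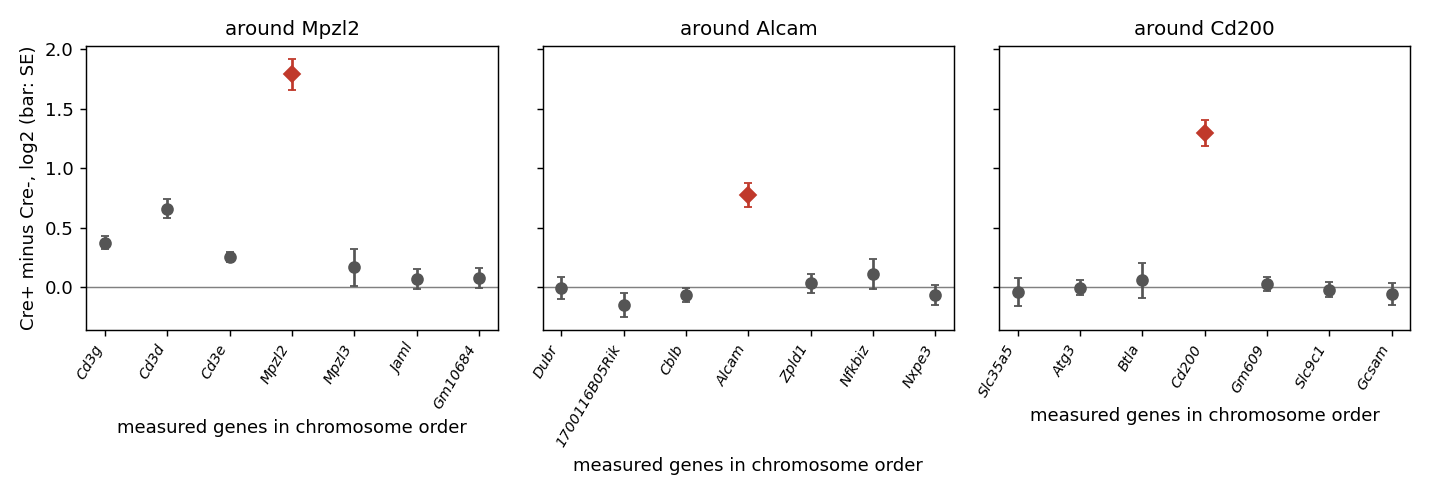
Log2 differences, Cre+ minus Cre-, of Mpzl2, Alcam and Cd200 (red diamonds) and of the 3 nearest measured genes on either side (grey), in chromosome order and not to scale; bars are limma's SE. The 3 CD3 genes beside Mpzl2 lie at 0.37, 0.66 and 0.25, and the 12 neighbours of Alcam and Cd200 lie between -0.15 and 0.11.

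The genes whose values followed those of Mpzl2, Alcam and Cd200 most closely were sought over the 4 arrays. Likeness was the Euclidean distance between log2 values after each gene was centred on its own mean, so it reflects both the direction and the size of the differences. With 4 arrays in 2 groups, genes of a like difference are close by construction, and these are descriptions. Nearest to Mpzl2 were Maged1 (distance 0.20), Lrp1 (0.26) and Rab34 (0.30), with differences between the groups of 1.69, 1.54 and 1.53. Nearest to Alcam were Vipr2 (0.03), Deptor (0.10) and Abi2 (0.10), with differences of 0.75, 0.77 and 0.81. Nearest to Cd200 were Zfp111 (0.08), Gpr83 (0.13) and Lxn (0.14), with differences of 1.26, 1.27 and 1.33. Vipr2, a receptor gene for vasoactive intestinal peptide, was at 6.97 and 7.02 in Cre+ mice against 6.29 and 6.20 in Cre- mice, and so shared with Alcam the order of all 4 mice.

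**Figure D4:**
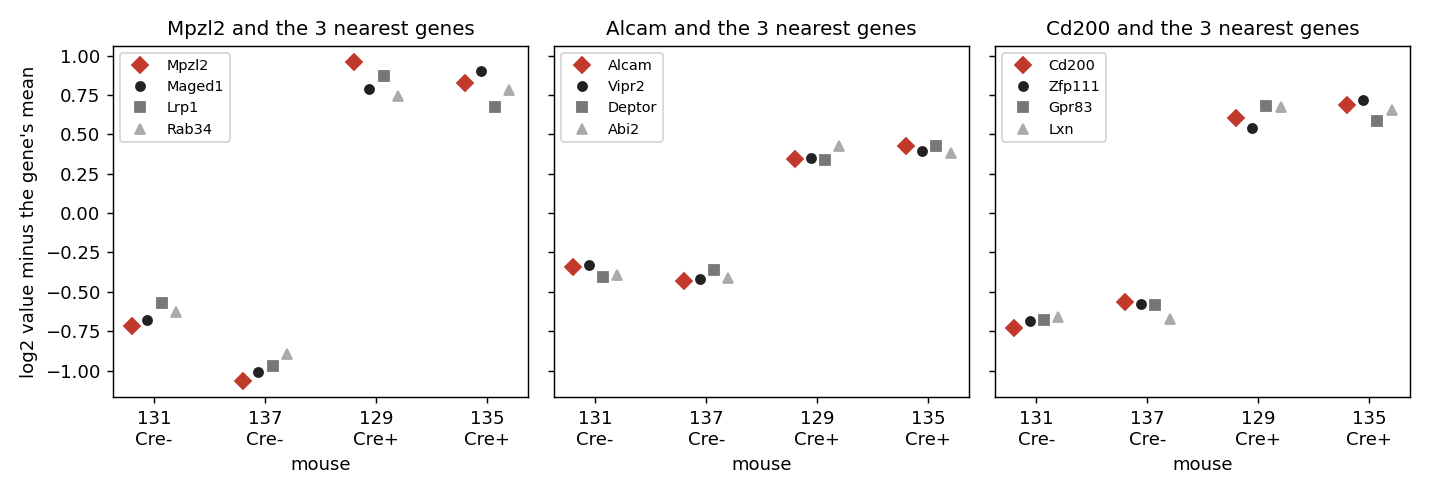
Log2 values minus each gene's own mean over the 4 arrays, by mouse, for Mpzl2, Alcam and Cd200 (red) and the 3 genes at the smallest distance from each; points are single arrays, shifted sideways for legibility. In each panel all genes lie below 0 in Cre- mice 131 and 137 and above 0 in Cre+ mice 129 and 135.

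Since several of these molecules are known from endothelium and thymic epithelium, marker genes of other cells were examined in the same arrays. The 9 endothelial markers had mean levels of 6.55 and 6.53 in Cre+ mice against 6.59 and 6.49 in Cre- mice, and 0 were called in the limited limma test. The endothelial cadherin gene Cdh5 was at 5.97 and 5.94 in Cre+ mice against 6.06 and 5.84 in Cre- mice. The 9 thymic epithelial markers were at 7.25 and 7.24 in Cre+ mice against 7.36 and 7.29 in Cre- mice, with 0 called. Foxn1, the defining factor of thymic epithelium, was between 6.35 and 6.39 in all 4 mice. Epcam, an epithelial adhesion gene, had the largest difference on that list, with 7.68 and 8.08 in Cre+ mice against 8.38 and 8.35 in Cre- mice. Its groups did not overlap, and the difference of -0.48 (SE 0.15) did not pass (limma, adjusted p = 0.643 over all probe sets). The median differences of the 2 lists were 0.01 and -0.02.

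Of the 8 dendritic and macrophage markers, Lyz2 was called higher in the limited test, as were 0.936% of all such probe sets. It was at 7.56 and 7.59 in Cre+ mice against 6.79 and 6.29 in Cre- mice. Its difference was 1.04 (SE 0.18), the 55th highest among 19938 genes. By limma its adjusted p was 0.0206 in the limited test and 0.327 over all probe sets. The list's median difference was -0.04. The class II genes H2-Aa and Cd74 on the same list had differences of the other sign, -0.57 (SE 0.38) and -0.47 (SE 0.40), that did not pass. Both were highest in Cre- mouse 137, where H2-Aa was at 7.73 against 6.51 to 6.67 in the other mice and Cd74 at 8.28 against 7.02 to 7.45. The 5 measured B cell markers, 5 natural killer markers, 5 stem and progenitor markers, 2 gamma-delta T cell markers and 2 platelet markers had 0 calls. With 0.936% of probe sets called higher and 0.285% lower, 0 calls among so few genes is uninformative. Their median differences were, in that order, -0.19, 0.00, -0.02, -0.09 and 0.03. Of the B cell markers, Cd79a (-0.35) and Pax5 (-0.19) were lower and Cd79b (0.25) higher, each without overlap. Of the natural killer markers, Gzma (-0.19) was lower and 2 were higher without overlap. Of the 11 measured T lineage markers 9 had higher and 2 lower means. In the limited test 4 were called higher, the 3 CD3 genes and Rag1 (0.38), beside 0.936% of all such probe sets. The 2 lower ones were Cd2 (-0.52) and Cd247 (-0.10), both without overlap and without a call. Thy1 was between 13.12 and 13.23 in all 4 mice. Of the 6 coreceptor and earlier-stage genes, Cd4 had a higher mean (0.54) and the other 5 had lower means. Among these were Cd8a (-0.61), Cd44 (-0.42), Il2ra (-0.38) and Cd8b1 (-0.27), and none of the 6 was called. The part of such stage genes in the values of Mpzl2, Alcam and Cd200 was not tested. Il2ra, whose CD25 protein is absent from the surface of DN4 cells, was between 10.71 and 11.58. In bulk samples, a higher share of expressing cells and more RNA per cell cannot be told apart.

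Leaving out each mouse in turn left Mpzl2 between 1.61 and 1.96, Cd200 between 1.21 and 1.37, and Alcam between 0.73 and 0.82. Both Cre+ mice lay above both Cre- mice for these genes, so no mouse left out could change the direction. The ranges therefore add no support. Mpzl1 ranged from 0.08 without mouse 137 to 0.30 without mouse 131. Esam ranged from -0.09 to 0.14, Jam2 from -0.01 to 0.05 and Icam2 from -0.12 to 0.03, so their signs changed with the mouse left out, while F11r ranged from 0.00 to 0.10.

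**Figure D5:**
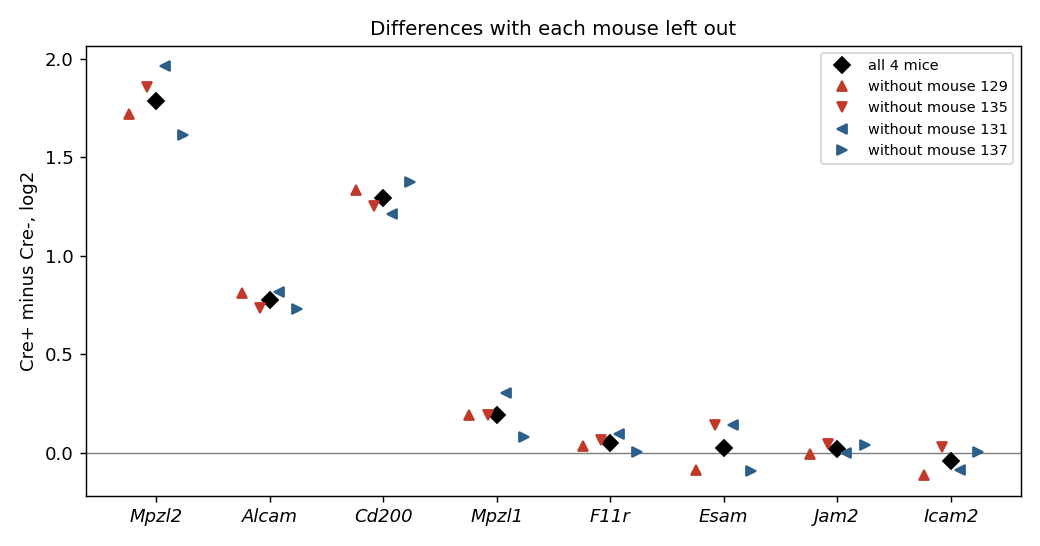
Log2 differences, Cre+ minus Cre-, of the 8 adhesion genes with all 4 mice (black diamonds) and without each mouse in turn (red triangles: a Cre+ mouse left out; blue: a Cre- mouse left out). Mpzl2, Cd200 and Alcam stay above 0.7 in each case, and Esam, Jam2 and Icam2 lie on both sides of 0. For genes whose groups do not overlap, the sign is fixed in advance.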

How the data were processed

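Total RNA of sorted DN4 cells was amplified, labelled and hybridised, 1 mouse to an array, per the labels' protocols. The authors deposited 1 value per probe set and mouse, which come from RMA, per the submitters' processing notes, and were taken as log2 from their range (3.14 to 14.4). For its version and for the build, nothing is given in the sources used here. The values were used without further normalization, and 0 sample columns were left out. Genes were named from probe sets with exactly 1 symbol in the platform annotation, with the highest-mean probe set per gene. Of 21789 such probe sets, 21698 were found by gene number in RefSeq, and 0 symbols changed.

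All 35556 probe sets were compared with limma 3.58.1 in R 4.3.3 (lmFit, eBayes with trend, Benjamini-Hochberg adjustment, threshold 0.05), with 2 residual and 2.99 prior degrees of freedom, and tested on simulated data. A test limited to probe sets with 1 symbol was an alternative, with 6.12 prior degrees of freedom, and its own variations were added after seeing the data. Every SE given is from the fit over all probe sets, also where it stands beside an adjusted p of the limited test. With 2 against 2 mice no exact two-sided permutation test can give a p under 0.333. The 8 genes and all lists were chosen with earlier results of these data known. Named from each list were genes passing in either test and the 4 largest differences, together with all neighbours of Mpzl2, Alcam and Cd200. Other genes named singly, such as the cell markers, were chosen after their values were seen. Alternatives covered normalization, dim probe sets, variance settings, array weights, sex and leaving out each mouse.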

Additional observations from a re-analysis of the deposited data

Results flagged for a closer look

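Jam2 and Icam2 differed in opposite directions in the female pair and the male pair of mice, with sex read from the level of Xist. Jam2 was higher in the Cre+ mouse by 0.07 in the female pair, and its difference was -0.03 in the male pair. Icam2 was higher in the Cre+ mouse by 0.08 in the female pair, and its difference was -0.16 in the male pair. Each pair is 1 mouse against 1 mouse, so the difference between the sexes was not tested. Over all genes, the median gap between 2 mice of a group was 0.07 for Cre+ and 0.09 for Cre- mice. The share of all genes with opposite signs in the pairs was not counted.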

How the results depend on the processing

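No paired analysis by replicate number was possible because the labels share no number between a Cre+ and a Cre- mouse. The fit with sex as a covariate pairs the mice by sex as read from Xist, with 1 residual degree of freedom. Over all probe sets, the count called by limma was 0 and rose to 10 (9 higher, 1 lower) after centring of the arrays, 25 above the 25th percentile, 80 above the median and 266 with 1 gene symbol, and it was 0 in the other alternatives, leave-one-out included. Partners called rose from 0 to 1 above the median and 2 with 1 gene symbol, and neighbours from 0 to 1 and 3. In the test limited to 1 gene symbol, 266 became 130 without an intensity trend (partners and neighbours then 0), 565 with sex as a covariate (partners then 3), and 138 (without mouse 129) to 480 (without mouse 131) with a mouse left out. With a mouse left out, partners called were 1 to 3, neighbours 3 to 4, and other family genes 0 to 2, the highest of each without mouse 131. Of other family genes, 1 was called after cyclic loess and with sex as a covariate. Centring of the arrays, quantile normalization and cyclic loess moved the 8 genes' differences by at most 0.02. Array weights and the sex covariate, which is balanced over the groups, left these differences as they were. Filters on dim probe sets and variance settings do not enter a difference of means, so they tell nothing of its stability. The array's single probe set per gene left no second probe set to compare.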
